A study of Homo sapiens with 12 samples.

Results

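The genes described here carry out haem breakdown and iron handling: HMOX1, HMOX2, BLVRA, BLVRB, FTH1, FTL, TFRC, SLC40A1, SLC11A2 and SLC48A1. They were taken by name, and each was read from the probe set (a group of short probes on the array) that the annotation gives to exactly 1 gene symbol and that had the highest mean over the 12 arrays. Of the 10 genes, 9 had such a probe set and FTH1 is not analysed here. These 9 stand among 19775 genes with a probe set of 1 symbol, of which 10683 gave a value above 4 on at least 3 arrays and were tested, all 9 included.

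The study exposed HK-2 cells, an immortalised line of human kidney proximal tubule epithelium, to 9 compounds to look for signatures of toxicity, and the arrays analysed here cover 1 of them, written CdCl in the labels (a cadmium salt). Cells received CdCl or its vehicle for 12 h or 48 h, which gave 4 groups of 3 arrays each: control at 12 h, CdCl at 12 h, control at 48 h and CdCl at 48 h. The labels state no dose of CdCl. All 4 groups grew in the same medium, which held 5 µg/ml human transferrin, the iron carrier that the TFRC receptor takes up, together with insulin, hydrocortisone, EGF and selenite. The replicates are labelled biological, but all come from 1 cell line, and nothing says how the cultures were separated, so the p-values measure the spread between these cultures only. Signals are on a log2 scale, on which a difference of 1 is a 2-fold change.

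As background, haem oxygenases open the haem ring and release iron, carbon monoxide and biliverdin, and biliverdin reductases turn biliverdin into bilirubin. The freed iron is stored in ferritin or leaves the cell through ferroportin, the product of SLC40A1, while iron enters as transferrin bound to its receptor and crosses the endosome membrane through the transporter encoded by SLC11A2. Proximal tubule cells take up filtered transferrin, iron and haem proteins, and HMOX1 is a classic gene of the response of kidney cells to oxidants and heavy metals. Iron regulatory proteins bind TFRC and ferritin messages, and for ferritin transcript levels and protein levels need not move together. The arrays measure no protein.

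The arrays were alike in scale: their medians lay between 2.97 and 3.04, replicates of a group correlated at 0.9965 to 0.9982, and arrays of different groups at 0.9731 to 0.989. The keratins KRT8, KRT18 and KRT19 and the kidney factor PAX8 were well above the minimum of 4 in every group, with PAX8 group means of 9.36 to 9.68. However, 8 of 16 proximal tubule markers, among them AQP1, CUBN, LRP2, GGT1, ANPEP and SLC34A1, were below 4 on all 12 arrays, so the label of the cells is only partly borne out. The summed log2 level of the 16 markers was 101.4 to 103.2 on the arrays of the other 3 groups and 94.16 to 95.38 in CdCl at 48 h. From control to CdCl at 48 h, mean SLC4A4 went from 12.61 to 9.46, CDH16 from 8.21 to 5.13 and CDH6 from 10.87 to 8.63. ABCC2 went the other way, from 2.80 to 4.19, and the other markers moved less. At 12 h the sums overlapped, but 4 of the 8 markers tested were called lower and 1 higher, beside 39.7% and 16.7% of all genes tested. From control to CdCl at 12 h, mean CDH16 went from 7.83 to 6.71, KRT8 from 11.19 to 10.595 and CDH6 from 12.40 to 11.84. ABCC2, under 4 in control, went from 2.91 to 5.52. The part of these marker shifts in the results at 12 h and 48 h was not tested. All 7 macrophage and leucocyte markers and all 6 endothelial markers measured were below 4 on all 12 arrays, as were 6 of 7 erythroid markers, the exception being TFR2. Of 7 fibroblast markers, COL1A1, DCN, LUM and ACTA2 were above the minimum, with a summed list level of 42.67 to 43.14 in control and 41.73 to 42 in CdCl at 12 h, and of 39.51 to 39.71 in control and 38.75 to 38.97 in CdCl at 48 h.

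HMOX1, BLVRB, FTL and TFRC rose and SLC40A1 fell with CdCl at 12 h, and at 48 h all 9 genes had changed, 8 of them upwards and SLC40A1 again downwards. HMOX1 was 75.7-fold higher at 12 h and 81.1-fold higher at 48 h, while the next largest rise, that of BLVRB at 48 h, was 2.12-fold. Beside these counts, 16.7% of all genes tested were called higher and 39.7% lower at 12 h, and 26.5% higher and 28% lower at 48 h (limma, Benjamini-Hochberg over all genes tested, adjusted p under 0.05). In either direction 5 of the 9 genes were called at 12 h and 9 at 48 h, beside 56.4% and 54.6% of all genes. Treated and control arrays did not overlap for 6 of the 9 genes at 12 h and for 9 at 48 h, beside 66.4% and 60% of all genes, so that the 12 h counts taken without regard to direction lie near the background. The median change of the 9 genes was 0.20 at 12 h and 0.61 at 48 h, against -0.16 and -0.02 over all genes tested. In bulk cultures, a change in which cells are present and a change in RNA per cell cannot be told apart.

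The calls at 12 h depend on where each array's zero is set, because the median gene was 0.16 lower with CdCl. Of all genes called at 12 h, 70.4% were lower on the deposited scale and 52.1% once each array was centred on its median over the genes tested (the median over all probe sets, given above, hardly differed between arrays). On centred arrays the 12 h count of the 9 genes was 6 higher and 1 lower, with HMOX2 and SLC11A2 joining the genes that rose. The poly-A spike controls, which are added to RNA in fixed amounts, averaged 6.22 ± 0.11 in control and 6.68 ± 0.07 in CdCl at 12 h, and 5.87 ± 0.09 and 6.02 ± 0.46 at 48 h (log2 signal, SD, n = 3), and their part in this shift was not tested.

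**Figure D1:**
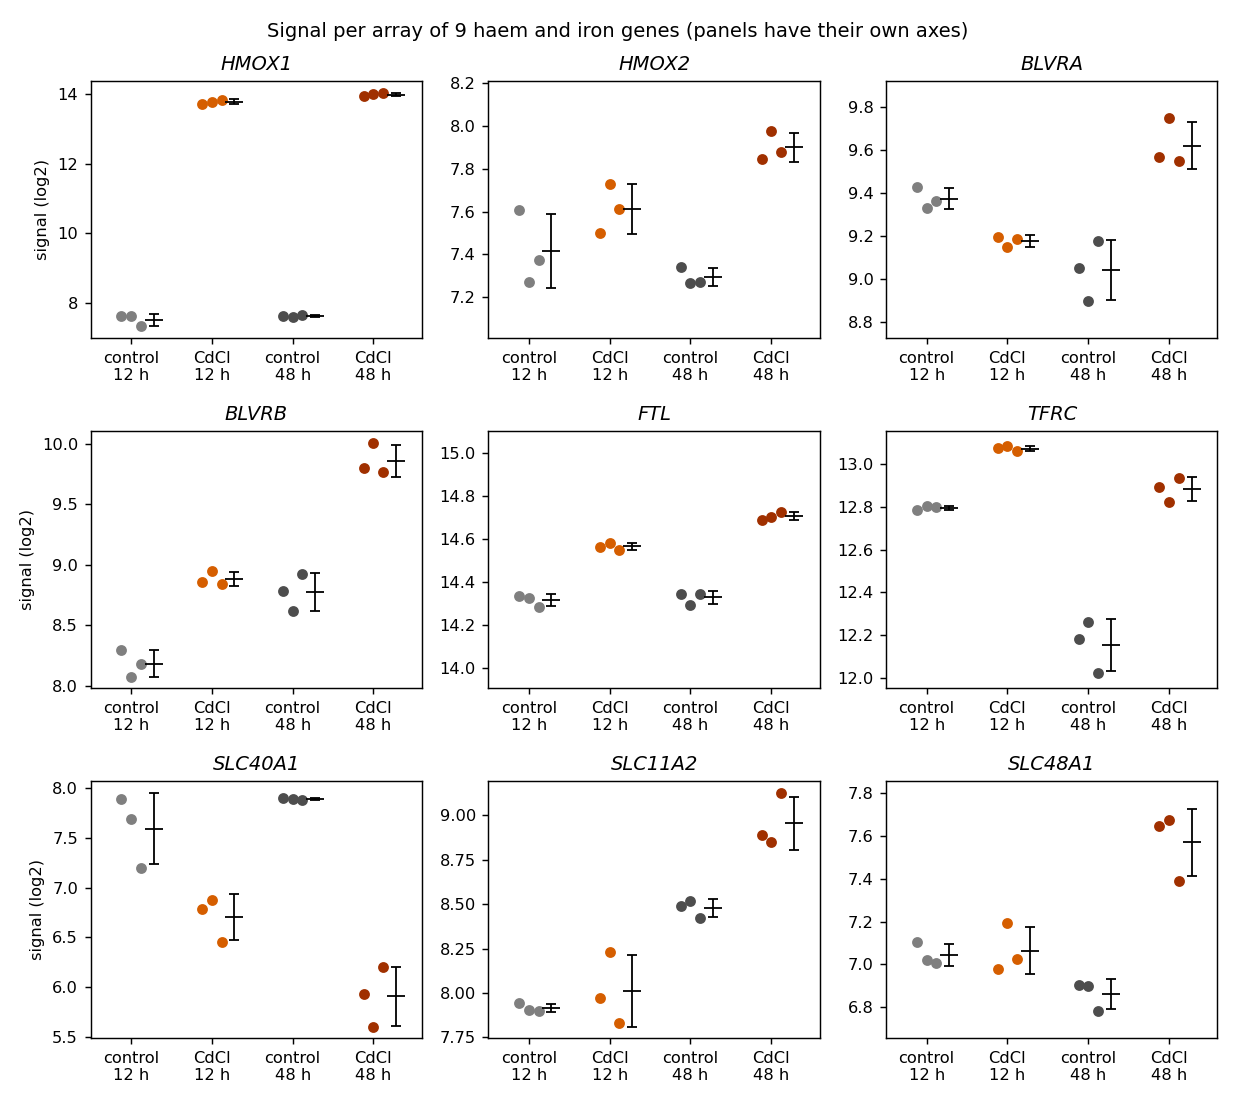
Log2 signal of 9 haem and iron genes in control and CdCl-treated HK-2 cells at 12 h and 48 h, with 1 point per array and the mean ± SD of 3 arrays beside each group. Each panel has its own axis, which does not start at 0. The CdCl arrays of HMOX1 sit between 13.70 and 14.03, far above its controls at 7.33 to 7.66, while those of SLC40A1 at 48 h sit between 5.60 and 6.20, below its controls at 7.88 to 7.91.

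Because HMOX1, BLVRB, FTL, TFRC and SLC40A1 passed the threshold at both times, the 250 bases before the RefSeq start of those with an entry are shown (RefSeq, GRCh38.p14; entries were matched for 8 of the 10 genes). The windows are chr19:40465746-40465995 on the minus strand for BLVRB, chr19:48965059-48965308 on the plus strand for FTL, chr3:196082091-196082340 on the minus strand for TFRC and chr2:189580787-189581036 on the minus strand for SLC40A1. Each is printed 5′ to 3′ on the strand of its gene, and capitals mark every match, on either strand, to 4 short motifs.
BLVRB: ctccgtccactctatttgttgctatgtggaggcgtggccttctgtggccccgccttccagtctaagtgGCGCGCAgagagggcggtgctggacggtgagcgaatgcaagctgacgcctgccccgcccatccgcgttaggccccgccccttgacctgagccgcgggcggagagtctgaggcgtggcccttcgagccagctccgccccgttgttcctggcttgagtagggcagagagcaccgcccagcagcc
FTL: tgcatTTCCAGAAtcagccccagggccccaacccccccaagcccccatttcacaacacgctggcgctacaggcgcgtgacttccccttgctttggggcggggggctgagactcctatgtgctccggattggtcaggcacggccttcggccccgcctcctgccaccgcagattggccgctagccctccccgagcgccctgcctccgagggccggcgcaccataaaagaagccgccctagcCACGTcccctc
TFRC: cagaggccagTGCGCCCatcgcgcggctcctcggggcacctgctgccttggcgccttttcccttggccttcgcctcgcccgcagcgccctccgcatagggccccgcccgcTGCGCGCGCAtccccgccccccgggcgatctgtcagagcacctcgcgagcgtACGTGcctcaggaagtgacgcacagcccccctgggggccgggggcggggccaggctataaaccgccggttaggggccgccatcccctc
SLC40A1: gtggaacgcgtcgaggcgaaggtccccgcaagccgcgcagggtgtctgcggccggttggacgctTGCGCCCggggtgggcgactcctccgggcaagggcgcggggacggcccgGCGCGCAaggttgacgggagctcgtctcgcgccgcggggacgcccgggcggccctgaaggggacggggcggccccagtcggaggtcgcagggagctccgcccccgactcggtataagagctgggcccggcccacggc
The motifs were the antioxidant response core TGACNNNGC, the metal response core TGCACNC or TGCGCNC, the hypoxia response core ACGTG, and a pair of heat shock units, GAANNTTC or TTCNNGAA. The metal response core had 1 match in BLVRB, 2 in SLC40A1 and 3 in TFRC, where 2 of the matches overlap in the run TGCGCGCGCA, and none in FTL. Such a match was present in 24.8% of 35114 windows of this length. Among genes not called at 12 h, a window of HMOX2 and that of BLVRA also held 1 match each, and those of SLC11A2 and SLC48A1 held none. The bases G and C made up 67.2% to 77.2% of the windows shown, and the share over all windows was not matched for this. The hypoxia core had 1 match in FTL and 1 in TFRC, against 18.5% of windows, and the heat shock pair had 1 match in FTL, against 11.6%. The antioxidant core, which 10.9% of windows hold, has no match in these 4 windows. These are matches of letters, and the arrays do not measure binding.

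HMOX1, which encodes the inducible haem oxygenase, had the largest change of the 9 genes at both times. Its log2 signals were 7.62, 7.63 and 7.33 in control and 13.70, 13.78 and 13.84 in CdCl at 12 h. At 48 h they were 7.64, 7.61 and 7.66 in control and 13.92, 13.99 and 14.03 in CdCl. All 6 treated arrays lay more than 6 log2 units above every control array. The difference was 6.24 ± 0.08 at 12 h (SE, adjusted p = 5.86e-13) and 6.34 ± 0.08 at 48 h (adjusted p = 9.72e-13). The difference between these differences was 0.10, with a 95% confidence interval of -0.16 to 0.36 (adjusted p = 0.537). The treated arrays of HMOX1 lie high, below the highest signal of each array, which was 15.65 to 15.79, and how far signals that high are compressed was not tested.

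HMOX2 encodes the constitutive haem oxygenase. Its signals at 12 h were 7.61, 7.27 and 7.37 in control and 7.50, 7.73 and 7.61 in CdCl, with the groups overlapping. At 48 h they were 7.34, 7.27 and 7.27 in control and 7.85, 7.98 and 7.88 in CdCl, with every treated array higher. The 12 h difference of 0.20 ± 0.09 did not pass the threshold (adjusted p = 0.0892), but it did on centred arrays (0.35, adjusted p = 0.00647), on quantile-normalised arrays (0.26, adjusted p = 0.0282) and without control replicate 1 at 12 h (0.29, adjusted p = 0.0143). At 48 h HMOX2 was 1.52-fold higher (0.61 ± 0.09, adjusted p = 0.000175). The other HMOX2 probe set lay close to the minimum, at 3.72 to 4.20, and differed by 0.24 at 48 h (adjusted p = 0.0874).

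Biliverdin reductases came next in the pathway, and BLVRB, which also reduces flavins, rose at both times. Its signals were 8.29, 8.07 and 8.18 in control and 8.86, 8.95 and 8.84 in CdCl at 12 h. By 48 h they were 8.78, 8.62 and 8.93 in control and 9.80, 10.01 and 9.76 in CdCl. No treated array overlapped the controls of its time, although the 48 h controls reached the level of the 12 h treated arrays. BLVRB was 1.62-fold higher at 12 h (0.70 ± 0.10, adjusted p = 8.93e-05) and 2.12-fold higher at 48 h (1.08 ± 0.10, adjusted p = 2.54e-06), on its only probe set.

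BLVRA, the main reductase of the biliverdin that haem oxygenases make, gave 9.43, 9.33 and 9.37 in control and 9.20, 9.15 and 9.19 in CdCl at 12 h. At 48 h it gave 9.05, 8.90 and 9.18 in control and 9.57, 9.75 and 9.55 in CdCl. Every treated array was thus below the controls at 12 h and above them at 48 h. The 12 h difference was -0.20 ± 0.08 and did not pass (adjusted p = 0.0589). It passed with a minimum of 6 (adjusted p = 0.0499), with a trended and robust variance (adjusted p = 0.0413), within the 12 h arrays alone (adjusted p = 0.0257), and without control replicate 2 or 3 or CdCl replicate 2 of 48 h (adjusted p = 0.0391, 0.0421 and 0.0403), and it was -0.05 on centred arrays. The BLVRA probe sets disagreed at 12 h: probe set 203771_s_at was higher by 0.34 (adjusted p = 0.0102) and 203773_x_at differed by -0.11 (adjusted p = 0.34). The chosen probe set, 211729_x_at, and 203773_x_at are of the x_at kind, whose probes can bind related sequences. At 48 h BLVRA was higher by 0.58 ± 0.08 (adjusted p = 0.000101), and its 3 probe sets above the minimum were higher by 0.54 to 0.79.

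Haem import into the cytosol is the role of SLC48A1, which carries haem out of endosomes and lysosomes. At 12 h SLC48A1 gave 7.10, 7.02 and 7.01 in control and 6.98, 7.19 and 7.02 in CdCl. The 48 h signals were 6.91, 6.90 and 6.78 in control and 7.65, 7.67 and 7.39 in CdCl. The groups overlapped at 12 h and were apart at 48 h. The 12 h difference was 0.02 ± 0.09 (95% interval -0.17 to 0.21, adjusted p = 0.858), and at 48 h SLC48A1 was 1.63-fold higher (0.71 ± 0.09, adjusted p = 3.82e-05). A dimmer probe set of the gene was higher by 0.58 at 48 h (adjusted p = 0.0137).

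Iron storage was read from FTL, the ferritin light chain. FTL gave 14.33, 14.33 and 14.28 in control and 14.57, 14.58 and 14.55 in CdCl at 12 h. Its 48 h signals were 14.34, 14.29 and 14.35 in control and 14.69, 14.71 and 14.73 in CdCl. Treated arrays lay above the controls at both times, in a narrow range below the highest signal of each array, which was 15.65 to 15.79. FTL was 1.19-fold higher at 12 h (0.25 ± 0.05, adjusted p = 0.002) and 1.30-fold higher at 48 h (0.38 ± 0.05, adjusted p = 0.000104). Its other probe set was higher by 0.54 at 12 h and 0.55 at 48 h (adjusted p = 0.000207 and 0.000164). Both FTL probe sets are of the x_at kind, whose probes can bind related sequences.

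Iron uptake through transferrin depends on TFRC, the transferrin receptor. TFRC gave 12.79, 12.80 and 12.80 in control and 13.07, 13.08 and 13.06 in CdCl at 12 h. At 48 h the controls gave 12.18, 12.26 and 12.02 and the treated arrays 12.89, 12.82 and 12.93. The treated arrays were above the controls of their own time, and the 48 h controls were the lowest of all. TFRC was 1.21-fold higher with CdCl at 12 h (0.28 ± 0.07, adjusted p = 0.00511) and 1.65-fold higher at 48 h (0.73 ± 0.07, adjusted p = 4.32e-06).

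The probe sets of TFRC agreed on the direction of the CdCl difference where they were clearly above the minimum, but not on its course. Probe set 207332_s_at was higher by 0.40 at 12 h and 1.11 at 48 h. Probe set 237215_s_at gave 7.14, 5.72 and 6.21 in control and 8.78, 8.60 and 8.59 in CdCl at 12 h, a 4.93-fold rise (2.30 ± 0.26, adjusted p = 3e-05). Its 48 h controls gave 7.36, 7.69 and 7.46 and its treated arrays 8.57, 8.60 and 8.57, a rise of 1.08 (adjusted p = 0.00527). On that probe set the control rose between 12 h and 48 h by 1.15 (adjusted p = 0.00319), whereas on the chosen one and on 207332_s_at it fell. The probe set 240686_x_at lay near the minimum and differed by -0.07 at 12 h and -0.0097 at 48 h, neither past the threshold.

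Endosomal and apical iron import is the work of SLC11A2, also called DMT1, which carries iron and other divalent metals. SLC11A2 gave 7.94, 7.90 and 7.90 in control and 7.97, 8.23 and 7.83 in CdCl at 12 h. At 48 h it gave 8.49, 8.52 and 8.42 in control and 8.89, 8.85 and 9.13 in CdCl. The 12 h groups overlapped, CdCl replicate 2 being the highest array, and the 48 h groups did not. The 12 h difference was 0.10 ± 0.10 (adjusted p = 0.445), and without CdCl replicate 2 of 12 h it was -0.01. At 48 h SLC11A2 was 1.39-fold higher (0.48 ± 0.10, adjusted p = 0.00187). Probe sets 203123_s_at and 203125_x_at of SLC11A2 were higher already at 12 h, by 0.44 (adjusted p = 0.00092) and 0.21 (adjusted p = 0.0467), and by 0.53 and 0.51 at 48 h. The dim 210047_at differed by -0.20 and -0.07, neither past the threshold.

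Iron export depends on SLC40A1, ferroportin, the known iron exporter of mammalian cells and the only gene of the 9 called lower at both times. SLC40A1 gave 7.89, 7.69 and 7.20 in control and 6.79, 6.88 and 6.45 in CdCl at 12 h. At 48 h the controls were close together at 7.91, 7.89 and 7.88, and the treated arrays gave 5.93, 5.60 and 6.20. All treated arrays were below all control arrays, and those of 48 h were below those of 12 h. The gene was 1.85-fold lower at 12 h (-0.89 ± 0.18, adjusted p = 0.00163) and 3.96-fold lower at 48 h (-1.98 ± 0.18, adjusted p = 3.58e-06). Macrophages are a main site of ferroportin, and all 7 macrophage and leucocyte markers measured here were below 4.

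**Figure D2:**
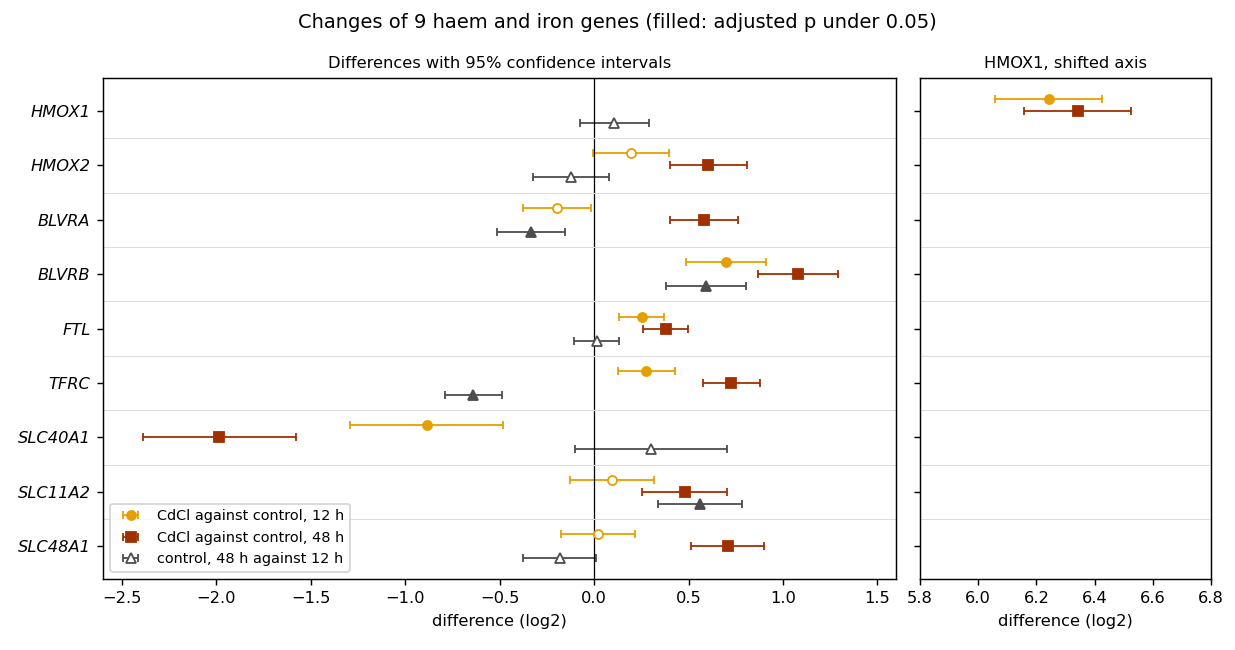
Log2 differences of 9 haem and iron genes with 95% confidence intervals, for CdCl against control at 12 h (yellow circles) and 48 h (brown squares) and for control at 48 h against control at 12 h (grey triangles), filled where the adjusted p is under 0.05. HMOX1 has a panel with a shifted axis, at 6.24 and 6.34, and SLC40A1 is the gene to the left of 0 at both times, at -0.89 and -1.98.

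The CdCl differences of 6 genes changed between 12 h and 48 h. The difference rose for HMOX2, BLVRA, BLVRB, TFRC and SLC48A1 and fell for SLC40A1, beside 27% of all genes tested called higher and 13% lower in this comparison, whose median over all genes was 0.13. In either direction 40.1% of all genes were called. Of all genes called here, 32.6% were lower on the deposited scale and 51.1% on centred arrays. BLVRA moved most among the rising genes, by 0.78 ± 0.12 (adjusted p = 0.000399), followed by SLC48A1 at 0.69 ± 0.13 (adjusted p = 0.00136) and TFRC at 0.45 ± 0.10 (adjusted p = 0.00379). SLC40A1 moved by -1.10 ± 0.26 (adjusted p = 0.00631). The values of HMOX2, 0.41 ± 0.13 (adjusted p = 0.0272), and BLVRB, 0.38 ± 0.14 (adjusted p = 0.0429), were less firm. On centred arrays they were 0.28 (adjusted p = 0.0986) and 0.26 (adjusted p = 0.185). Probe sets differed on some of these values. For TFRC, 207332_s_at gave 0.72 (adjusted p = 0.000151) and 237215_s_at gave -1.22 (adjusted p = 0.0251). The mean of all TFRC probe sets, which takes in some near or under the minimum of 4, gave 0.0047 (adjusted p = 0.972). For SLC48A1, 218417_s_at gave 0.41 (adjusted p = 0.199). For BLVRA, 203771_s_at gave 0.46 (adjusted p = 0.0203) and 203773_x_at gave 0.65 (adjusted p = 0.00252).

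Leaving out single arrays also ended the calls of HMOX2 and BLVRB. HMOX2 lost its call without control replicate 1 or CdCl replicate 1 of 12 h, or without control replicate 2 or 3 or CdCl replicate 2 of 48 h (adjusted p = 0.0508 to 0.0673). BLVRB lost its call without control replicate 1 or 3 or CdCl replicate 1 or 3 of 12 h, or without control replicate 1 or 2 or CdCl replicate 1 or 2 of 48 h (adjusted p = 0.0528 to 0.0967). The count of genes higher was thus 3 without control replicate 1 or CdCl replicate 1 of 12 h, or without control replicate 2 of 48 h. SLC11A2, at 0.38 ± 0.14, just missed the threshold (adjusted p = 0.0533), and FTL gave 0.13 ± 0.08 (adjusted p = 0.205), which passed with a trended and robust variance (adjusted p = 0.043) and with no minimum (adjusted p = 0.017). SLC11A2 passed with a minimum of 6 (adjusted p = 0.0423), with a trended and robust variance (adjusted p = 0.0391), and without CdCl replicate 2 of 12 h or CdCl replicate 2 of 48 h (adjusted p = 0.012 and 0.0402).

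Untreated cultures also differed between 12 h and 48 h. BLVRB and SLC11A2 rose and BLVRA and TFRC fell in control cells, beside 23.4% of all genes tested called higher and 33.5% lower, or 56.9% in either direction. The 2 times did not overlap for 5 of the 9 genes, beside 64.6% of all genes, so neither count stands above the background. Signs of RNA quality moved with this comparison: the 3′ minus 5′ log2 signal of the actin control probe sets was 1.90 ± 0.20 in control at 12 h and 1.495 ± 0.12 at 48 h (SD, n = 3), and that of GAPDH was 0.13 ± 0.09 and -0.0084 ± 0.03. With CdCl actin gave 1.74 ± 0.05 at 12 h and 1.63 ± 0.22 at 48 h, and GAPDH -0.02 ± 0.03 and -0.0073 ± 0.06. The part of these shifts in the results was not tested. BLVRB was 1.51-fold higher in 48 h controls (0.59 ± 0.10, adjusted p = 0.000258) and SLC11A2 1.48-fold higher (0.56 ± 0.10, adjusted p = 0.000572), with no overlap between the times. TFRC was 1.56-fold lower (-0.64 ± 0.07, adjusted p = 1.06e-05) and BLVRA 1.26-fold lower (-0.33 ± 0.08, adjusted p = 0.00452). On the chosen probe sets, the TFRC and BLVRA differences at 48 h were therefore read against controls lower than those of 12 h. TFRC changed by -0.89 on 207332_s_at (adjusted p = 4.31e-07) and by 1.15 on 237215_s_at (adjusted p = 0.00319), and the mean of its probe sets gave -0.07 (adjusted p = 0.396). HMOX1 differed by 0.11 (adjusted p = 0.295), FTL by 0.01 (adjusted p = 0.851), HMOX2 by -0.12 (adjusted p = 0.279), SLC40A1 by 0.30 (adjusted p = 0.186) and SLC48A1 by -0.18 (adjusted p = 0.0991), none past the threshold.

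In treated cultures, 7 of the 9 genes were higher at 48 h than at 12 h and TFRC and SLC40A1 were lower, beside 34.7% of all genes tested called higher and 27.6% lower, or 62.3% in either direction. The arrays of the 2 times did not overlap for any of the 9 genes, beside 68% of all genes without overlap. BLVRB rose by 0.98 ± 0.10 (adjusted p = 3.76e-06) and SLC11A2 by 0.94 ± 0.10 (adjusted p = 7.78e-06), and SLC40A1 fell by 0.80 (adjusted p = 0.0026). SLC48A1 rose by 0.50 (adjusted p = 0.000367) and BLVRA by 0.44 (adjusted p = 0.000546). The comparison shares its arrays with those above, so it adds no separate evidence. HMOX1 (0.21, adjusted p = 0.0488), HMOX2 (0.29, adjusted p = 0.0176), FTL (0.14, adjusted p = 0.0385) and TFRC (-0.19, adjusted p = 0.0319) were close to the threshold. Each of these 4 calls was lost without CdCl replicate 1 of 12 h and likewise without CdCl replicate 2 of 48 h. Other arrays ended the calls of HMOX1 (any CdCl array, or any control array of 48 h), FTL (any CdCl array, or control replicate 1 of 48 h) and TFRC (any CdCl array but replicate 3 of 48 h) as well. The adjusted p of the lost calls was 0.0518 to 0.147 for HMOX1, 0.0578 to 0.0749 for HMOX2, 0.0523 to 0.0926 for FTL and 0.059 to 0.0915 for TFRC. The count of genes higher was then 4 in place of 7, and that of genes lower was 1 without any CdCl array of 12 h or without CdCl replicate 1 or 2 of 48 h.

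**Figure D3:**
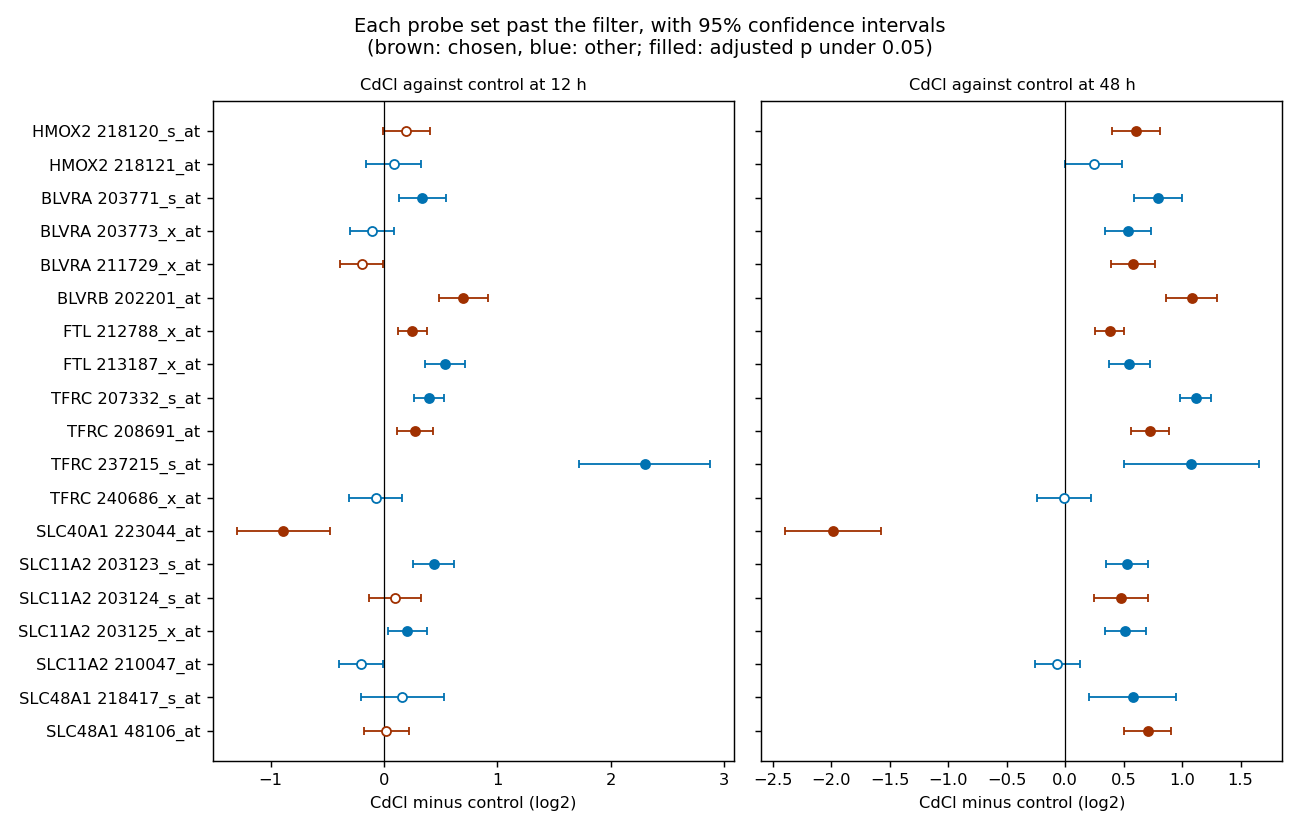
Log2 differences between CdCl and control with 95% confidence intervals, for every probe set of the genes other than HMOX1 that passed the minimum, at 12 h on the left and 48 h on the right (brown for the chosen probe set, blue for others, filled where the adjusted p is under 0.05). TFRC 237215_s_at stands apart at 12 h, at 2.30, and the BLVRA probe sets lie on both sides of 0 at 12 h but all to the right of it at 48 h, at 0.54 to 0.79.

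Other genes of haem and iron metabolism were read from 6 lists, whose counts stand beside the 16.7% of all genes tested called higher and 39.7% lower at 12 h, and 26.5% and 28% at 48 h. Of haem synthesis genes, 10 of 11 were tested: 3 rose and 6 fell at 12 h, and 4 rose and 4 fell at 48 h, with median changes of -0.32 and -0.05. With the mean of probe sets 2 fell at 48 h. ALAS1, which catalyses the rate-limiting step outside red cells, was higher by 0.55 ± 0.08 at 12 h and 0.61 ± 0.08 at 48 h (adjusted p = 0.000123 and 5.15e-05). FECH, which inserts iron to complete haem, was higher by 0.80 and 0.63 (adjusted p = 1.39e-05 and 7.55e-05). Among the steps between them, PPOX was 2.54-fold lower at 12 h (-1.34 ± 0.15, adjusted p = 1.6e-05), and ALAD, a zinc enzyme, was 2.79-fold lower at 48 h (-1.48 ± 0.14, adjusted p = 3.65e-06).

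Of haem transport and binding genes, 8 of 13 were tested: 1 rose and 3 fell at 12 h, and 2 rose and 4 fell at 48 h, with medians of -0.26 and -0.32. On centred arrays 2 rose and 2 fell at 12 h. ABCB6, a porphyrin transporter, was higher by 0.96 ± 0.18 at 12 h and 3.34-fold higher at 48 h (1.74 ± 0.18, adjusted p = 0.000804 and 8.31e-06). Between the times its mean went from 6.55 to 5.57 in control and from 7.51 to 7.31 in CdCl. FLVCR1, a haem exporter at the cell surface in several cell types, was 2.40-fold lower at 48 h (-1.26 ± 0.12, adjusted p = 3.73e-06). At 12 h its difference was -0.24 (adjusted p = 0.109). The 12 h difference of FLVCR1 passed with the mean of its probe sets (-0.40, adjusted p = 0.000381). It also passed with the groups compared alone (adjusted p = 0.023) and without CdCl replicate 3 of 48 h (adjusted p = 0.0376). SLC46A1, which carries folate and haem, changed by -0.86 at 12 h and -0.41 at 48 h (adjusted p = 7.13e-06 and 0.00159).

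Among partners of iron uptake, reduction and export, 11 of 20 were tested: 2 rose and 5 fell at 12 h, and 4 rose and 2 fell at 48 h, with medians of -0.22 and 0.10. SLC39A14, which imports zinc, iron and other metals, was 2.38-fold higher at 12 h (1.25 ± 0.09, adjusted p = 6.38e-07) and higher by 0.72 at 48 h (adjusted p = 3.87e-05). Its means rose between the times both in control, from 9.89 to 11.46, and in CdCl, from 11.14 to 12.18. LCN2, which binds siderophores and is a marker of tubular injury, was 5.77-fold higher at 48 h (2.53 ± 0.09, adjusted p = 2.71e-09). At 12 h its mean signals were 3.37 in control and 3.58 in CdCl, both under the minimum of 4, so no difference is read there. The mitochondrial iron importer SLC25A37 was higher by 0.49 at 12 h (adjusted p = 0.00686) and differed by -0.10 at 48 h (adjusted p = 0.548).

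The reductases of the same list, which turn ferric into ferrous iron, moved apart. STEAP2 changed by -0.78 and -0.67 (adjusted p = 0.000425 and 0.0012), and CYBRD1 by -0.33 and -0.57 (adjusted p = 0.00367 and 8.17e-05), although the mean of the CYBRD1 probe sets gave -0.13 at 12 h (adjusted p = 0.128). STEAP3, the reductase that works beside the transferrin receptor in endosomes, differed by -0.22 at 12 h (adjusted p = 0.0546) and was higher by 0.54 at 48 h (adjusted p = 0.000367). The 12 h difference of STEAP3 passed without CdCl replicate 2 of 12 h or control replicate 1 or 2 of 48 h (adjusted p = 0.0284 to 0.0487).

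Of genes of iron sensing, storage and ferritin turnover, 9 of 18 were tested: 1 rose and 7 fell at 12 h, and 1 rose and 6 fell at 48 h, with medians of -0.39 and -0.41 beside -0.16 and -0.02 over all genes tested. FBXL5, which marks iron regulatory proteins for breakdown when iron is plentiful, changed by -0.50 at 12 h (adjusted p = 0.00237) and 2.01-fold lower at 48 h (-1.01 ± 0.11, adjusted p = 1.39e-05). NCOA4, the receptor that delivers ferritin to lysosomes, changed by -0.39 and -0.45 (adjusted p = 0.000712 and 0.00026). PCBP2, an iron chaperone, changed by -0.57 and -0.31 (adjusted p = 2.33e-05 and 0.00185). ACO1, an iron regulatory protein, was higher by 0.54 at 48 h (adjusted p = 0.000283). Its 12 h rise of 0.23 (adjusted p = 0.0386) was lost without any control array of 12 h or without CdCl replicate 1 or 2 of 12 h (adjusted p = 0.0659 to 0.141), which left 0 genes of the list higher at 12 h.

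Iron-sulphur cluster assembly had 20 of 23 genes tested: 2 rose and 10 fell at 12 h, and 5 rose and 5 fell at 48 h, with medians of -0.25 and 0.01, shares close to those of all genes at 48 h. On centred arrays 4 rose and 7 fell at 12 h, and 7 rose and 2 fell at 48 h. ISCA1, a late-acting scaffold, was 2.23-fold higher at 12 h (1.16 ± 0.07, adjusted p = 2.29e-07) and higher by 0.69 at 48 h (adjusted p = 1.04e-05). NFS1, the sulphur donor enzyme, changed by -0.97 and -0.55 (adjusted p = 1.72e-06 and 0.000105), and the mean of its probe sets gave -0.38 at 48 h (adjusted p = 0.0858). IBA57, a partner of ISCA1, was 2.02-fold lower at 12 h (-1.01 ± 0.14, adjusted p = 7.52e-05). Its 48 h means were near the minimum, at 4.22 in control and 3.86 in CdCl, and their difference of -0.37 (adjusted p = 0.0384) was lost without control replicate 1 or 3 or CdCl replicate 2 or 3 of 48 h (adjusted p = 0.0707 to 0.145). The counts rested on single arrays. At 12 h, 4 rose without control replicate 1, and 1 rose without control replicate 2 or 3 or CdCl replicate 2 or 3 of 12 h. At 48 h, 3 rose without control replicate 1 or CdCl replicate 3 of 48 h. The number that fell at 48 h was 2 or 3 without control replicate 2 or any CdCl array of 12 h, or without control replicate 1 or 3 or any CdCl array of 48 h.

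Of 9 transcription factors and partners that answer to haem or oxidants, 7 were tested. At 12 h 4 rose and 3 fell, and at 48 h 3 rose and 2 fell, with medians of 0.63 and -0.08. The genes that rose include BACH2 at both times, which passed the minimum of 4 only through CdCl arrays. Its means were 3.43 in control and 4.23 in CdCl at 12 h, and 3.38 and 4.10 at 48 h, so its rise is not read. MAFF, a small partner protein of NRF2 and BACH1, was 12.5-fold higher at 12 h (3.64 ± 0.08, adjusted p = 2.67e-11) and 4.62-fold higher at 48 h (2.21 ± 0.08, adjusted p = 1.66e-09). MAFG, of the same family, was 2.33-fold higher at 12 h and higher by 0.81 at 48 h (adjusted p = 1.35e-06 and 2.53e-05). BACH1, the haem-binding repressor of HMOX1, was higher by 0.63 ± 0.09 at 12 h (adjusted p = 0.00012) and differed by -0.13 at 48 h (adjusted p = 0.263). NFE2L2, which encodes NRF2, changed by -0.40 and -0.70 (adjusted p = 0.00207 and 3.58e-05), and KEAP1, its inhibitor, by -0.80 and -0.36 (adjusted p = 6.41e-05 and 0.0125). The mean of the NFE2L2 probe sets gave -0.11 at 12 h (adjusted p = 0.145). Without CdCl replicate 2 of 48 h the KEAP1 call at 48 h was lost (adjusted p = 0.0506), which left 1 gene of the list lower.

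**Figure D4:**
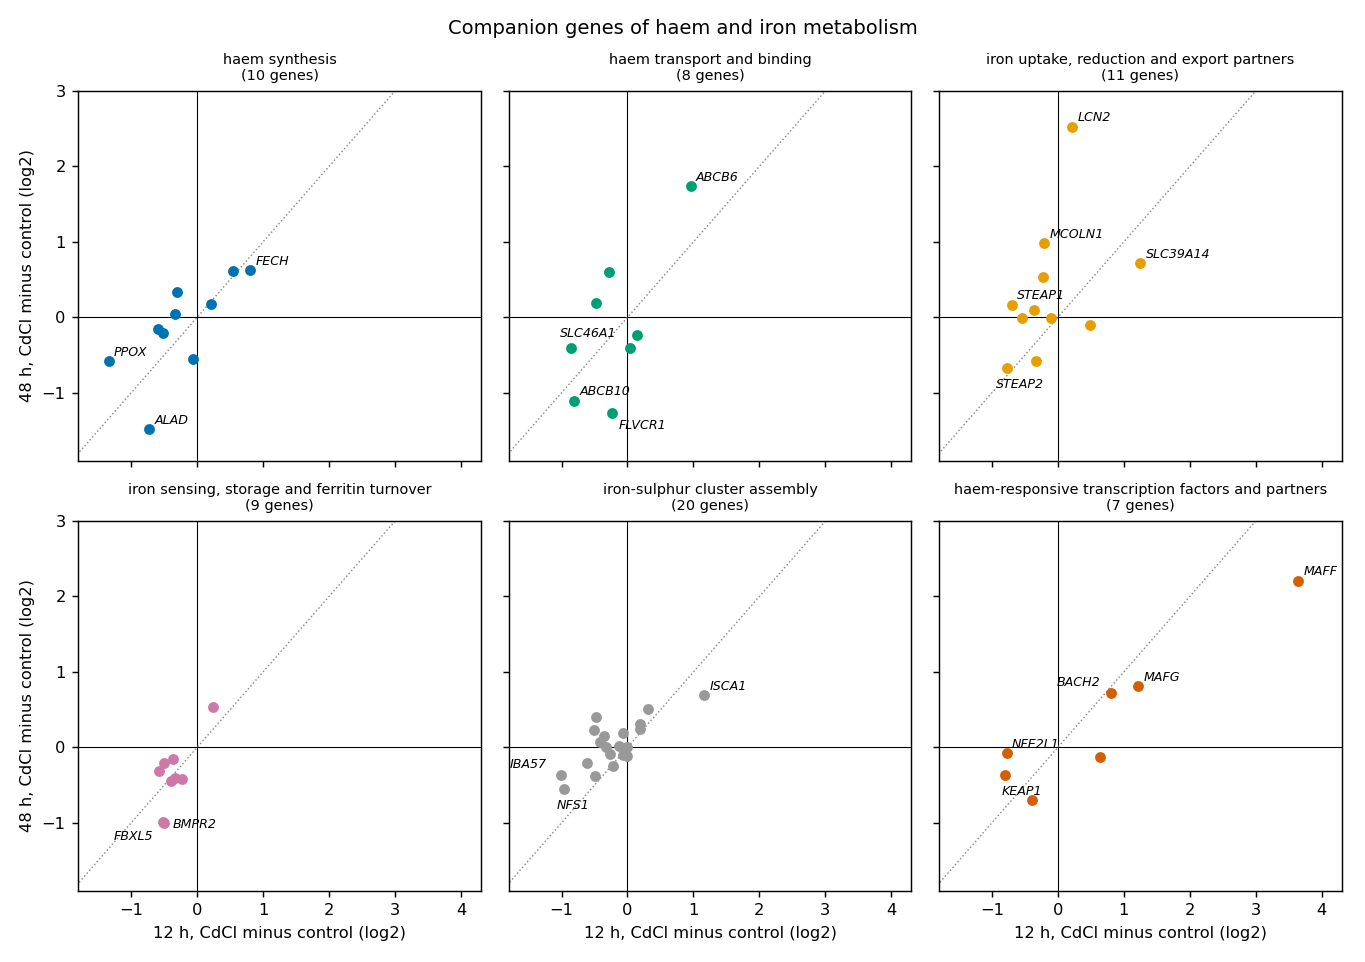
Log2 difference between CdCl and control at 12 h (horizontal) and at 48 h (vertical) for each tested gene of 6 lists, 1 point per gene, with a dotted line where both are equal. MAFF lies far to the upper right at 3.64 and 2.21, LCN2, under the minimum at 12 h, lies above the line at 2.53 on the vertical axis, and FLVCR1 and ALAD lie at the bottom of their panels at -1.26 and -1.48 on the vertical axis.

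For the genes with a change of at least 2-fold, HMOX1, BLVRB and SLC40A1, the 3 tested genes of most like pattern were found from the root mean square difference over the 12 arrays, each gene centred on its own mean. The genes were not scaled, so this measure grows with the size of a gene's change and is not compared between the 3 genes. Nearest to HMOX1 were MT1M, a metallothionein, at 0.671, SPINK1, a trypsin inhibitor, at 0.883, and LINC00304 at 1.18. MT1M differed by 4.82 at 12 h and 6.49 at 48 h between CdCl and control, and its control fell by 1.48 between the times. For BLVRB they were STX4 at 0.0864, PACC1 at 0.125 and PFDN2 at 0.128, and STX4 differed by 0.71 at 12 h and 1.21 at 48 h. Nearest to SLC40A1 were DPY19L2P2 at 0.182, DOCK11 at 0.189 and RERG at 0.204, and DPY19L2P2 differed by -0.96 and -1.93. These likenesses describe the 12 arrays, which fall into 4 groups.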

How the data were processed

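Total RNA of 12 HK-2 cultures was read on Affymetrix arrays. The deposited values are log2 signals that the authors made with GCRMA, per the submitters' processing notes; other steps are not given in the sources used here. Of 54675 probe sets, 62 controls were left out, and of the others 41091 had exactly 1 symbol in the platform annotation, 1801 several and 11721 none. Each gene was read from its brightest probe set, by mean over all arrays. Genes above 4 on at least 3 arrays were fitted by group means over all 12 arrays with limma 3.58.1 in R 4.3.3 (lmFit, eBayes), with p-values adjusted over 10683 genes by Benjamini-Hochberg at 0.05; errors are SE unless marked SD. Probe sets were fitted likewise over the 19005 past the same minimum. The fit was tested on simulated data in which 200 of 10683 genes were changed, fewer than were called here. It recovered 6% of changes of 0.25 at either time, and 68% and 64% of changes of 0.5 at 12 h and 48 h. For the difference between times it recovered 2% of changes of 0.25 and 32% of changes of 0.5. Small differences that did not pass are thus not shown to be absent. An exact permutation test of 3 against 3 cannot go below p = 0.1 and was not used.

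The members, gene lists and tests were chosen with earlier results of these data known. Named were all members, a fixed set of companion genes, the largest rise and fall of each list at each time, and the 3 genes of most like pattern. Of that fixed set, ABCG2 and HEPH lay under the minimum, and IREB2 had no probe set of 1 symbol. No set test was run. Alternatives were quantile normalisation, centring, other minimums, the mean of probe sets, other probe sets, trended and robust variance, fits of only the groups compared, a replicate block, and leaving out each array. No correlation marks same-numbered arrays as pairs: 3 of 18 same-number pairs exceeded 0.1 (range -0.34 to 0.16).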

Additional observations from a re-analysis of the deposited data

Results flagged for a closer look

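The CdCl difference at 48 h was tested against that at 12 h (limma, difference of differences, adjusted over all genes tested). Of all genes tested, 40.1% passed the threshold of 0.05, 27% higher and 13% lower. Of the 34 named genes tested, 24 passed, 6 of the 9 genes of haem breakdown and iron handling and 18 others. Some of the others were named for the size of their CdCl difference at 12 h or 48 h, which favours a difference between times, so their number is a description. Values are log2 differences at 48 h minus those at 12 h. Among the haem and iron genes they were 0.41 for HMOX2, 0.78 for BLVRA, 0.38 for BLVRB, 0.45 for TFRC, 0.69 for SLC48A1 and -1.10 for SLC40A1. TFRC gave 0.72 on probe set 207332_s_at, -1.22 on 237215_s_at and 0.0047 with the mean of its probe sets.

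Among genes whose difference was more positive at 48 h, LCN2 had 2.32, ABCB6 0.78, PPOX 0.77, STEAP3 0.76, IBA57 0.64, SLC46A1 0.45, KEAP1 0.44, NFS1 0.42 and PCBP2 0.26. LCN2 was under the minimum of 4 in both groups at 12 h, with means of 3.37 and 3.58, and IBA57 was near it at 48 h, at 4.22 in control and 3.86 in CdCl, so the size of these values is set in part by background signal. For PPOX, SLC46A1, KEAP1, NFS1 and PCBP2 the fall was smaller at 48 h than at 12 h. Among genes whose difference was more negative at 48 h, MAFF had -1.43, FLVCR1 -1.03, BACH1 -0.76, ALAD -0.75, SLC25A37 -0.59, SLC39A14 -0.54, FBXL5 -0.50, ISCA1 -0.47 and MAFG -0.41. MAFF, SLC39A14, ISCA1 and MAFG remained above control at both times, while FLVCR1, ALAD and FBXL5 lay further below it at 48 h. With at least 1 array left out, the calls of HMOX2, BLVRB, SLC25A37, FBXL5, MAFG, ABCB6, PCBP2, IBA57 and KEAP1 were lost, with an adjusted p of up to 0.0967, and on centred arrays those of SLC46A1 (adjusted p = 0.0669) and NFS1 (adjusted p = 0.0601) were lost as well. With the mean of probe sets MAFG gave -0.0052 (adjusted p = 0.977), SLC46A1 0.14 (adjusted p = 0.22) and NFS1 0.39 (adjusted p = 0.23).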

How the results depend on the processing

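Leaving out any array, quantile normalisation, centring, both other minimums, the mean of probe sets, trended and robust variance, the groups compared alone and the replicate block all kept the member calls made at 12 h and 48 h on the chosen probe sets. Over 45 member results per setting, direction and side of the threshold were kept for 38 with centring, 41 with quantile normalisation, 42 with trended and robust variance, 43 with a minimum of 6, 42 with none, 41 with the mean of probe sets and 41 with the block, for 34 of 36 with the groups compared alone, for 33 of 55 on other probe sets, and for 495 of 540 with an array left out. The groups compared alone give no value for the difference between times.

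Centring each array on its median over the genes tested gave 2830 genes lower at 12 h in place of 4246, and 1907 in place of 2888 whose difference rose between times; 3 members rose in that comparison in place of 5, as with the mean of probe sets. Members lower at 12 h numbered 2 in place of 1 with a minimum of 6, with trended and robust variance and with the groups compared alone. The mean of probe sets left 1 member lower in control at 48 h against 12 h in place of 2, and members lower in CdCl at 48 h against 12 h numbered 1 in place of 2 with quantile normalisation, the mean of probe sets and the replicate block. Leaving out each array gave 1 to 2 members lower at 12 h, 3 to 6 whose difference rose, and 4 to 7 higher and 1 to 2 lower in CdCl at 48 h against 12 h. The cause of these changes was not tested.

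Signs turned only for the following. The difference between times was -0.026 for HMOX1, -0.066 for ALAS1 and -0.017 for STEAP2 on centred arrays, and 0.090 for FECH and -0.25 for PCBP2 with the mean of probe sets. With the mean of probe sets STEAP3 was 0.26 at 12 h. With an array left out, the difference between times of STEAP2 ranged from -0.0065 (without CdCl replicate 1 of 12 h) to 0.28. At 12 h SLC11A2 ranged from -0.012 to 0.19 and SLC48A1 from -0.042 to 0.064 (both lowest without CdCl replicate 2 of 12 h). FTL between controls ranged from -0.0031 (without control replicate 3 of 12 h) to 0.030, and SLC25A37 at 48 h from -0.23 to 0.0075 (without control replicate 2 of 48 h). On other probe sets, BLVRA was 0.34 at 12 h, SLC11A2 -0.20 at 12 h and -0.068 at 48 h, and HMOX2 0.10 between controls; TFRC was -0.073 at 12 h, -0.0097 at 48 h, 0.032 between controls and 0.096 between CdCl groups on 240686_x_at, and -1.22 between times and 1.15 between controls on 237215_s_at. The mean of probe sets also left the difference between times of TFRC at 0.0047 (adjusted p = 0.972).

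With the replicate number as a block, 4 member calls were lost and none gained: CdCl at 48 h against 12 h for HMOX1 (adjusted p = 0.0774), FTL (0.0703) and TFRC (0.0539), and the difference between times for BLVRB (0.0724); 4 of 12 arrays correlated best with their own number. Signals near 4 are close to the background of these arrays, which limits what a difference there can show. Those of FTL, and of HMOX1 with CdCl, are high, and how far they are compressed was not tested. All other differences are limited by 3 arrays a group.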
